A study of Mus musculus with 12 samples.

Results

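The actin cytoskeleton genes of the SRF programme were examined in the hippocampus of Srf mutant and heterozygous mice, with and without pilocarpine. The set is a list of 45 genes named by function. It holds the actins, the tropomyosins, myosin chains, focal adhesion proteins, crosslinkers, factors of filament turnover, and the calponin, transgelin, caldesmon and LIM proteins. Of these genes, 44 had a probe set of their own, out of 19938 such genes on the array. Actg1, the gene of cytoplasmic gamma-actin, was represented only by probe sets that the annotation assigns to both Actg1 and Actb.

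RNA of 12 mice aged 7 to 10 weeks was hybridised to Affymetrix Mouse Gene arrays, with 3 mice in each of 4 groups and each mouse on its own array. Mutants carried 2 floxed Srf alleles and a tamoxifen-inducible Cre recombinase driven by the Camk2a promoter, so that Srf is removed in glutamatergic neurons of the forebrain, while glia, vessels and other cells of the same tissue keep it. Heterozygous littermates carried the same Cre with 1 floxed and 1 intact Srf allele, and all mice had received tamoxifen. In both genotypes a group received 335 or 350 mg/kg pilocarpine, a muscarinic agonist that induces seizures, and the controls of both genotypes received Ringer solution instead. Heterozygous mice with pilocarpine were in status epilepticus (SE) for 40 min. The mutants with pilocarpine analysed here had seizures but did not reach SE, so that after pilocarpine genotype and SE cannot be told apart. As no heterozygous group had pilocarpine without SE, effects of the drug and of SE cannot be told apart in these mice either. A rise or change in SE below means pilocarpine with SE against Ringer solution. The sample labels name the heterozygous mice as wild-type or control animals and the pilocarpine-injected mutants as mice with seizure; the description in the study's methods was followed. The time of harvest of the mutants that did not reach SE is not given in the sources used here.

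SRF is a transcription factor that binds the CArG box, a short A- and T-rich element flanked by CC and GG. It works with 2 classes of partners. Ternary complex factors, which respond to MAP kinase signalling, direct it to immediate early genes such as Fos, and the myocardin-related transcription factors direct it to genes of the cytoskeleton. These cofactors are held by monomeric actin and released when actin assembles into filaments, so that actin dynamics control the transcription of actin and of its binding proteins. In neurons this programme is known for its role in growth cones, neurite outgrowth and spines, and in vessels for the contractile genes of smooth muscle.

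All values are on a log2 scale, on which 1 unit is a 2-fold difference, and levels of different probe sets were not compared with each other. Differences were tested with limma across 23410 probe sets with a named gene, the Benjamini-Hochberg adjustment of p ran over all of them, and a gene was called at an adjusted p under 0.05. Medians of the arrays lay between 6.78 and 6.86, and 35 of the 44 genes had a mean above the median of all probe sets with a gene (7.69). Srf itself was at 8.80, 8.94 and 8.96 in mutant controls and at 9.59, 9.53 and 9.60 in heterozygous controls, a difference of -0.67 (standard error 0.0523, adjusted p = 0.000263), with every mutant array below every heterozygous one. The 8 neuronal markers of the tissue were all above the median level, and their mean lay between 12.04 and 12.11 in mutants with pilocarpine, 12.04 and 12.08 in mutant controls, 12.01 and 12.07 in heterozygous mice with SE, and 12.09 and 12.15 in heterozygous controls. After pilocarpine, differences of these markers between mutants and heterozygous mice ran from -0.31 to 0.32, 4 positive and 4 negative. Grik4 was called there, higher in mutants by 0.32 (standard error 0.0795, adjusted p = 0.0231). As the RNA comes from whole tissue, fewer cells of a type and less RNA per cell cannot be told apart. Xist was above 9 on 4 of 12 arrays, 1 in mutants with pilocarpine, 2 in mutant controls, 0 in heterozygous mice with SE and 1 in heterozygous controls, so that females were unevenly spread over the groups. Values with the Xist level as a covariate are given where they end a call.

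CArG boxes were looked for in the promoter windows of RefSeq (GRCm38.p6), which hold 250 bases before and 50 after a start of transcription. The CArG box reads as such a box on both strands, so that 1 search covers both. It was found for 10 of the 40 genes of the set with a window (25.0%), against 488 of 27025 genes of the genome (1.81%). The set was listed as genes of the SRF programme, so that a higher share than in the genome may follow from that choice. Counted by window, 11 of 50 windows of the set (22.0%) and 535 of all 32851 windows (1.63%) held a box. The genes were Fhl2 with a box at 2 of its starts, and Actc1, Myl9, Acta1, Cnn2, Actg1, Vcl, Lima1, Filip1l and Fhl1 with 1 each. Of the genes with a difference between groups described here, Vcl, Actc1 and Fhl2 had a box, as had Actg1, which is measured only together with Actb. Their boxes are shown in capitals with up to 50 bases on each side, 5′ to 3′ on the strand of the gene. The first base of the box lies 227 bases before the start of Vcl, 47 bases before that of Actc1, 90 bases before that of Actg1, and 31 and 96 bases before the starts of Fhl2.
Vcl, chr14:20929148-20929230, plus strand: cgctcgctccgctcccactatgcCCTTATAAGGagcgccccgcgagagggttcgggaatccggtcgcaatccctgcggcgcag
Actc1, chr2:114052863-114052972, minus strand: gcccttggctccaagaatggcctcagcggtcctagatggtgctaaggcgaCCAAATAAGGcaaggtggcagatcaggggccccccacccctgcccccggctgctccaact
Actg1, chr11:120348526-120348635, minus strand: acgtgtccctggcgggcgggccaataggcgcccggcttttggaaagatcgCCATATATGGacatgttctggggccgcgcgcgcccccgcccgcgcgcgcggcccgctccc
Fhl2, chr1:43163933-43164042, minus strand: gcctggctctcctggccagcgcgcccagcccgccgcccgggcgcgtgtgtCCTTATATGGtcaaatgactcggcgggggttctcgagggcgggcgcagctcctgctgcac
Fhl2, chr1:43196798-43196907, minus strand: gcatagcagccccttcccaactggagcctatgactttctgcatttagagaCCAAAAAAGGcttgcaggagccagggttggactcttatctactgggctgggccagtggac
The box of Vcl has the same 10 letters as those of Cnn2, Lima1 and Filip1l, whereas the letters of the other boxes were found in 1 window of the set each. A match describes these letters and no binding was measured. Acta1, Myl9, Cnn2, Lima1, Filip1l and Fhl1 had a box and no call. Conversely, Tpm4, Tpm1, Myh9, Zyx, Vasp, Flna, Actn1, Dstn, Wdr1, Tagln2 and Pdlim5 were called and had no box in their windows. Whether a box goes with a call was not tested. Actb, Tagln, Tgfb1i1, Myh11 and Actg2 were not searched.

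The set as a whole differed between groups in 2 ways, as shown in the plot of all 44 genes. Some genes were lower in the mutants with or without pilocarpine. Others were higher in heterozygous mice with SE than in their controls, and 1 of these was also called in the mutants with pilocarpine. In mutant controls against heterozygous controls, 2 of 44 genes (4.55%) were lower, Actb and Tgfb1i1, against 0.0812% of all probe sets. No gene was higher, where 0.0384% of all probe sets were. At an unadjusted p under 0.05 the counts were 9 lower and 1 higher, against 1029 lower and 1014 higher of all 23410 probe sets. In mutants with pilocarpine against heterozygous mice with SE, 11 genes (25%) were lower, against 4.72% of all probe sets. There 0 were higher, against 5.39%. At an unadjusted p under 0.05, 17 were lower and 0 higher, against 2380 and 3031 of all probe sets. With the genotypes compared over both states, as the mean of those differences, 12 genes (27.3%) were lower, against 3.08% of all probe sets. There 0 were higher, against 3.31%. The unadjusted counts were 19 lower and 0 higher, against 2167 and 2560 of all probe sets. A call over both states does not require a difference in each state. Of these 12, Vcl, Flna, Tagln2 and Actn1 had differences in controls of 0.03, -0.04, -0.10 and -0.09, without a call. Between heterozygous mice with SE and heterozygous controls, 8 genes (18.2%) were higher, against 5.08% of all probe sets, and 0 were lower, against 6.93%. The unadjusted counts were 17 higher and 0 lower, against 2040 and 3540 of all probe sets. Between mutants with pilocarpine and mutant controls, 1 gene (2.27%) was higher and 0 were lower, where 0.871% and 0.965% of all probe sets were. The unadjusted counts were 5 higher and 2 lower, against 1326 and 2144 of all probe sets. The response to pilocarpine was lower in mutants than in heterozygous mice for 1 gene (2.27%), where it was lower for 2.12% of all probe sets and higher for 1.47%. That share of the set lies near that of all probe sets. Calls were more frequent among brighter probe sets, where most of the set lies. Above the median level, 12 of 35 genes were called after pilocarpine, against 2296 of 11705 probe sets in either direction. In SE 10 of 35 were, against 2574, and over both states 12, against 1644. For pilocarpine in mutants 2 were, against 688, for the response 2, against 874, and in controls 1, against 28.

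**Figure D1:**
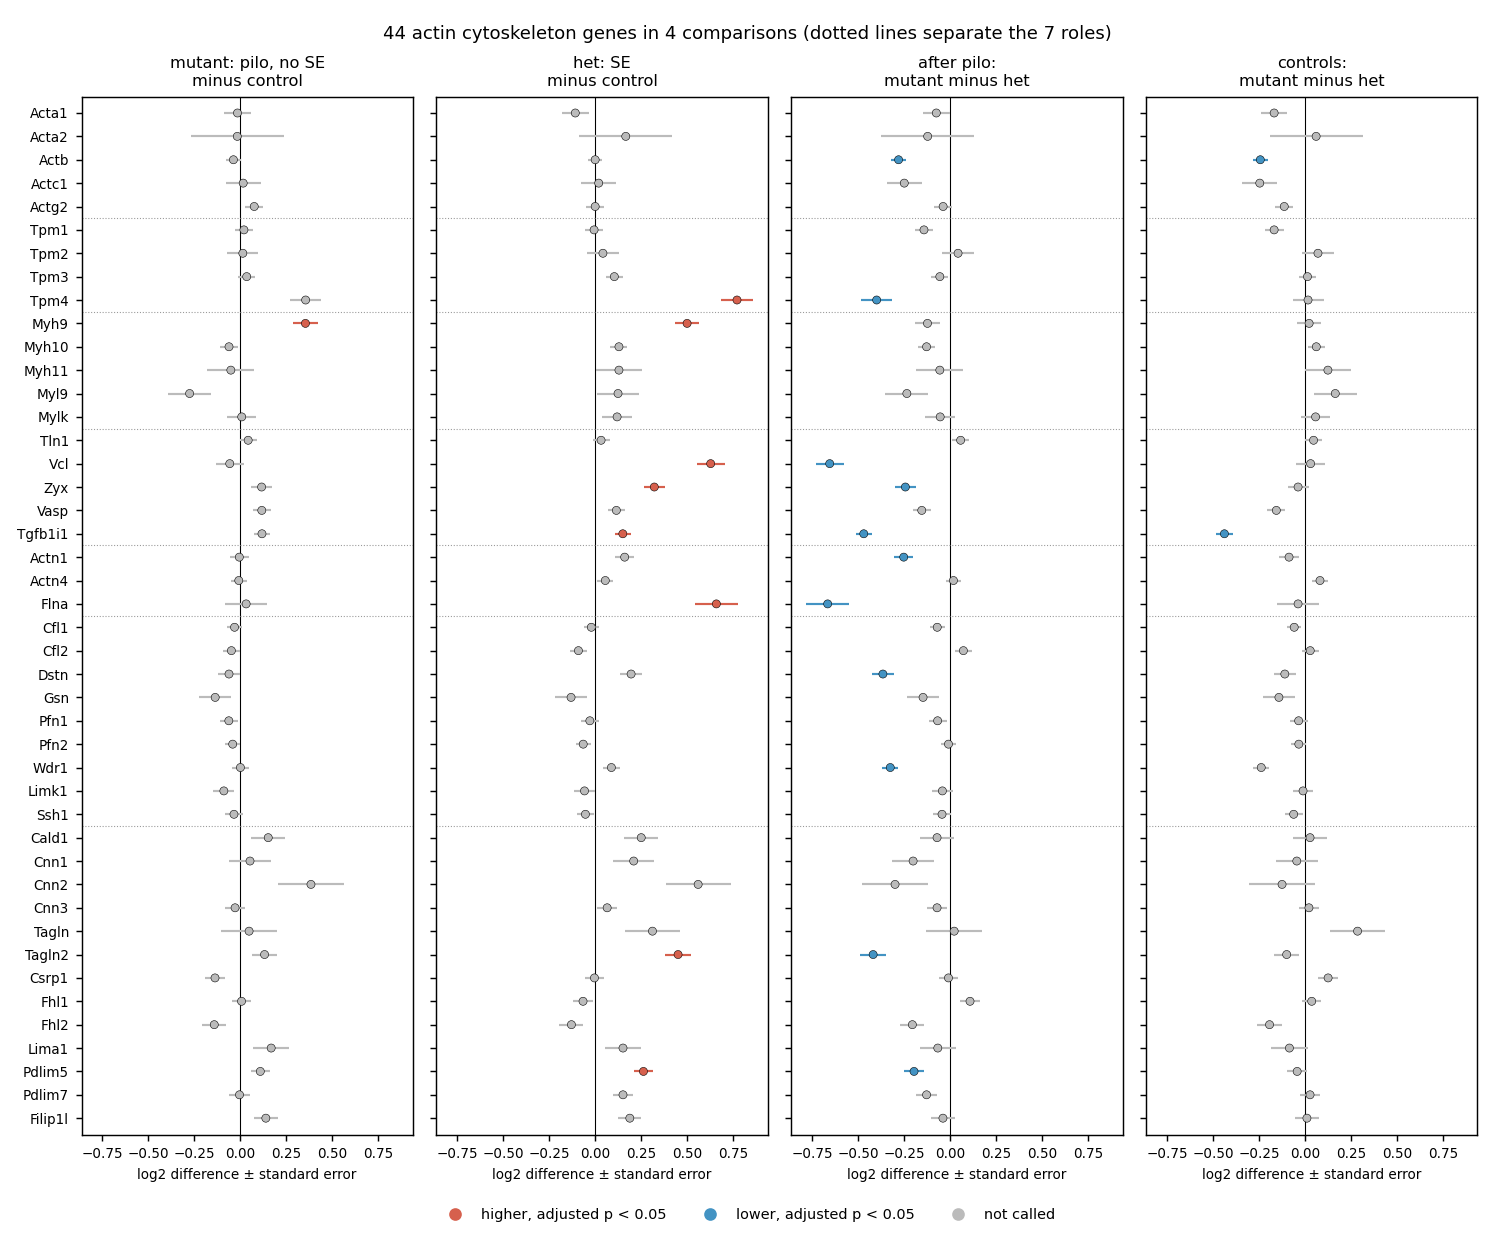
Log2 difference (x axis, point) with its standard error (line) of each of the 44 genes (y axis, grouped by role) in 4 comparisons, in red where higher, in blue where lower and in grey where not called at an adjusted p under 0.05. In heterozygous mice with SE 8 genes were higher than in their controls. In mutants with pilocarpine 11 genes were lower than in heterozygous mice with SE, while 2 were lower in mutant controls than in heterozygous controls.

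The median log2 difference of the 44 genes was -0.12 after pilocarpine and -0.03 without it, where those of all probe sets were 0.01 and -0.01. After pilocarpine 38 genes had a negative and 6 a positive difference, against 24 and 20 in the controls. Over all probe sets these counts were 10743 and 12667 after pilocarpine, and 12640 and 10770 in the controls. For SE in heterozygous mice the median was 0.12, with 31 positive and 13 negative differences, and for pilocarpine in mutants it was 0.00, with 23 positive and 21 negative. All probe sets had 9074 positive and 14336 negative differences in SE, and 11293 and 12117 for pilocarpine in mutants. The comparisons of SE and of pilocarpine each share a group of arrays with each of the comparisons between genotypes, while the genotype difference after pilocarpine has no array in common with that in controls, nor has SE in heterozygous mice with pilocarpine in mutants. By role, the genes lower after pilocarpine were 1 of 5 actins, 1 of 4 tropomyosins, 0 of 5 myosin chains with their kinase, 3 of 5 focal adhesion genes, 2 of 3 crosslinkers, 2 of 9 turnover genes and 2 of 13 calponin, transgelin, caldesmon and LIM genes. The genes raised in SE were 0 of 5 actins, 1 of 4 tropomyosins, 1 of 5 myosin chains with their kinase, 3 of 5 focal adhesion genes, 1 of 3 crosslinkers, 0 of 9 turnover genes and 2 of 13 calponin, transgelin, caldesmon and LIM genes.

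Among the actins, Actb and the probe sets shared by Actg1 and Actb were lower in the mutants and were not called with pilocarpine in either genotype. Actb encodes cytoplasmic beta-actin. Its own probe set was at 13.93, 13.89 and 13.98 in mutant controls, against 14.17, 14.19 and 14.16 in heterozygous controls. With pilocarpine it was at 13.92, 13.89 and 13.87 in mutants, against 14.17, 14.15 and 14.20 in heterozygous mice with SE. All 6 mutant arrays lay below all 6 heterozygous ones. The difference was -0.24 (standard error 0.0391, adjusted p = 0.0408) in controls, -0.28 (standard error 0.0391, adjusted p = 0.00061) after pilocarpine and -0.26 (standard error 0.0277, adjusted p = 0.000147) over both states, where Actb was 1.2-fold lower in mutants. The call in controls was the least stable: it held in 5 of 21 alternative settings (highest adjusted p = 0.285, and 0.0837 with the Xist level as a covariate), and was lost in 11 of 12 cases in which an array was left out, with adjusted p values of 0.0607 to 0.196, leaving out the third mutant control being the exception. The difference itself stayed between -0.27 and -0.22. SE in heterozygous mice changed Actb by 0.00 (95% interval -0.09 to 0.09), and pilocarpine in mutants by -0.04 (-0.12 to 0.05).

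The 4 probe sets shared by Actg1 and Actb gave a difference further from 0 than the own probe set of Actb, a comparison that was not tested. Their values lay between 13.10 and 13.25 in mutants with pilocarpine and between 13.78 and 13.92 in heterozygous mice with SE. In mutant controls they were between 13.19 and 13.47, against 13.79 and 13.92 in heterozygous controls. No mutant array reached a heterozygous one. Averaged over the 4 probe sets, the level was 13.17 ± 0.035 in mutants with pilocarpine and 13.84 ± 0.0436 in heterozygous mice with SE, and 13.29 ± 0.0815 in mutant controls and 13.84 ± 0.0112 in heterozygous controls (SD, n = 3 each). The differences were -0.57 to -0.52 in controls (standard errors 0.0463 to 0.0507, adjusted p = 0.000263 to 0.000662), -0.69 to -0.62 after pilocarpine (adjusted p = 1.33e-06 to 5.79e-06) and -0.63 to -0.57 over both states (standard errors 0.0328 to 0.0359, adjusted p = 3.46e-07 to 1.34e-06). This is a difference of -32.7% to -30.3% in controls and of -38.2% to -35% after pilocarpine. All 4 kept these calls in each of the alternative settings with the call at an adjusted p under 0.05. In mutants, the response to pilocarpine was -0.15 to -0.10 (adjusted p = 0.152 to 0.337), and in heterozygous mice that to SE was -0.05 to 0.02 (adjusted p = 0.582 to 0.943). How much of this signal comes from Actg1 and how much from Actb cannot be told apart on these probe sets.

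Of the muscle actins, Actc1, the cardiac isoform, was lower in the mutants over both states. Its level was 7.26, 7.32 and 7.51 in mutants with pilocarpine, against 7.47, 7.71 and 7.65 in heterozygous mice with SE. In mutant controls it was 7.23, 7.38 and 7.42, against 7.79, 7.47 and 7.51 in heterozygous controls. The groups overlapped after pilocarpine and did not in controls. The mean of Actc1 (7.475) was below the median level, so that it was not tested under the filter on dim probe sets. Whether its probe set also takes up RNA of other actins was not tested. The difference over both states was -0.25 (standard error 0.0668, adjusted p = 0.0475), and those of each state were alike, -0.25 in both, without a call (adjusted p = 0.129 after pilocarpine and 0.506 in controls). The call held in 8 of 19 alternative settings and was lost in 9 of 12 cases in which an array was left out (adjusted p = 0.0539 to 0.119); the exceptions were the third mutant with pilocarpine, the first heterozygous mouse with SE and the second heterozygous control. Acta1 and Actg2, the actins of skeletal and of enteric smooth muscle, had no call, with differences over both states of -0.12 (standard error 0.0509, adjusted p = 0.201) and -0.08 (standard error 0.0347, adjusted p = 0.245). Acta2 is described with the smooth muscle genes.

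**Figure D2:**
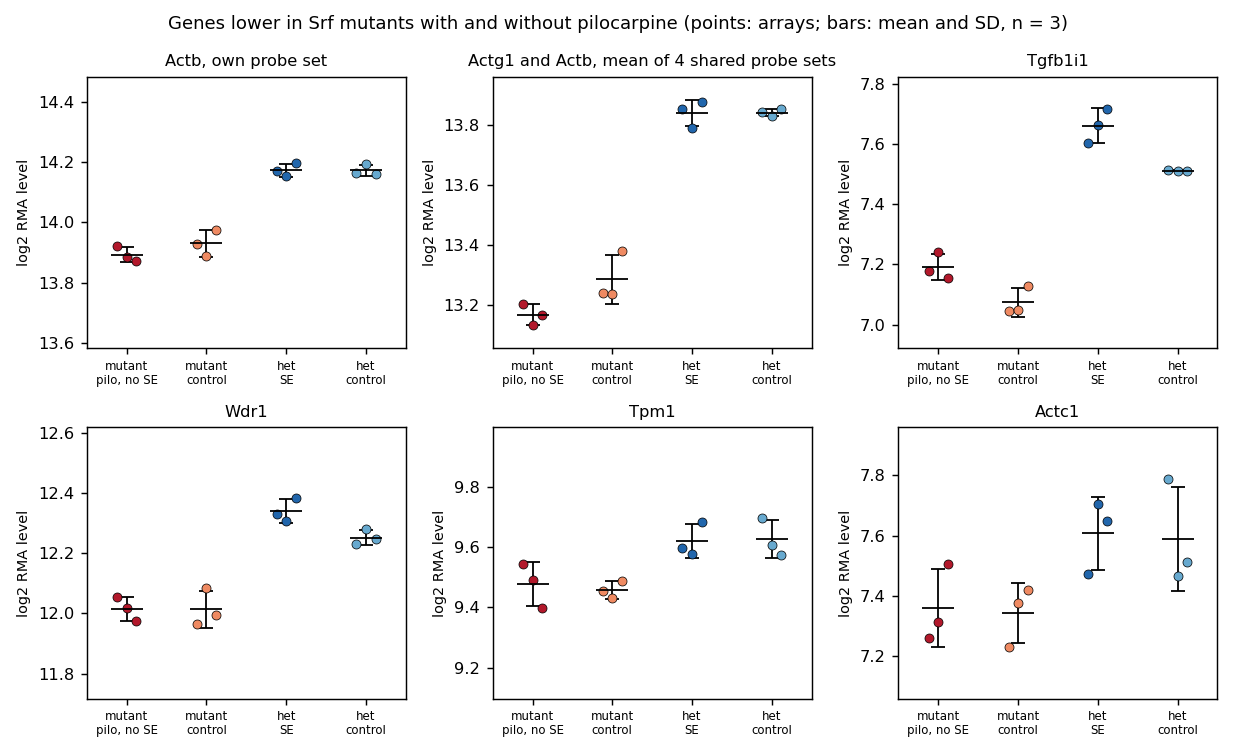
Log2 level (y axis) on each array (points) by group (x axis) of genes lower in the mutants over both states, with mean and SD in black (n = 3); every panel spans 0.9 log2 units. For Actb and the probe sets shared by Actg1 and Actb, the 6 mutant arrays lie below the 6 heterozygous ones in both states, and so do those of Tgfb1i1, Wdr1 and Tpm1, whereas the arrays of Actc1 overlap after pilocarpine.

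The focal adhesion genes split between both patterns. Tgfb1i1 encodes Hic-5, a LIM protein related to paxillin. It was at 7.05, 7.05 and 7.13 in mutant controls, against 7.51, 7.51 and 7.51 in heterozygous controls, and at 7.18, 7.24 and 7.16 in mutants with pilocarpine, against 7.60, 7.66 and 7.72 in heterozygous mice with SE. The mutant arrays were below the heterozygous ones in both states. Its difference was -0.44 (standard error 0.0446, adjusted p = 0.00126) in controls, -0.47 (standard error 0.0446, adjusted p = 2.83e-05) after pilocarpine and -0.45 (standard error 0.0315, adjusted p = 4.52e-06) over both, the lowest of the 44 genes in controls and over both states. These 3 calls held in every alternative setting in which Tgfb1i1 was tested, which leaves out the filter on dim probe sets, as its mean was below the median level. SE also raised it, by 0.15 (standard error 0.0446, adjusted p = 0.0472), but this call held in 4 of 20 alternative settings, was lost with the Xist level as a covariate (0.15, adjusted p = 0.0743), and in 10 of 12 cases with an array left out, the third mutant control and the first heterozygous mouse with SE being the exceptions (adjusted p = 0.0507 to 0.178). In mutants, pilocarpine changed it by 0.12 (standard error 0.0446, adjusted p = 0.227), and the difference between the responses was -0.03 (standard error 0.0631, adjusted p = 0.868).

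Vcl encodes vinculin, which links integrin adhesions to actin filaments. It was at 9.74, 9.45 and 9.75 in heterozygous mice with SE, against 9.09, 9.03 and 8.95 in heterozygous controls. In mutants with pilocarpine it was at 8.90, 9.05 and 9.04, against 9.02, 9.06 and 9.08 in mutant controls. The arrays with SE lay above all 9 others, and those others overlapped. The rise in SE was 0.63 (standard error 0.0768, adjusted p = 0.000152), or 1.54-fold, while the change in mutants was -0.06 (standard error 0.0768, adjusted p = 0.802), with a 95% interval of -0.22 to 0.11. Vcl was the 1 gene of the set whose response was called as different between the genotypes, by -0.68 (standard error 0.109, adjusted p = 0.00352), and this call held in all 20 alternative settings. After pilocarpine it was lower in mutants than in heterozygous mice with SE, with a difference of -0.65 (standard error 0.0768, adjusted p = 0.000159), and in controls the difference was 0.03 (standard error 0.0768, adjusted p = 0.946).

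Zyx encodes zyxin, a LIM protein of adhesions and stress fibres. It was at 9.27, 9.18 and 9.12 in heterozygous mice with SE and 8.93, 8.82 and 8.85 in heterozygous controls. In mutants it was at 8.89, 8.97 and 8.98 with pilocarpine and 8.79, 8.93 and 8.77 in controls, where the groups overlapped. SE raised it by 0.32 (standard error 0.057, adjusted p = 0.00243), and it was lower in mutants after pilocarpine, with a difference of -0.24 (standard error 0.057, adjusted p = 0.0162). Its responses to pilocarpine differed between the genotypes by -0.21 (standard error 0.0807, adjusted p = 0.223). The call between genotypes after pilocarpine was lost without the first mutant with pilocarpine (-0.21, adjusted p = 0.0787) and without the first heterozygous mouse with SE (-0.20, adjusted p = 0.0669). Vasp, an elongation factor of actin filaments, was lower in mutants over both states, with a difference of -0.16 (standard error 0.034, adjusted p = 0.0175), a call that held in all 20 alternative settings, with like differences of -0.15 after pilocarpine and -0.16 in controls. Tln1, the gene of talin, which activates integrins, had no call, with a response to SE of 0.03 (standard error 0.0466, adjusted p = 0.753).

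Flna was the most responsive of the crosslinkers. It encodes filamin A, which joins filaments into networks. Flna was at 9.36, 8.96 and 9.36 in heterozygous mice with SE, against 8.50, 8.70 and 8.51 in heterozygous controls, and the groups did not overlap. In mutants with pilocarpine it was at 8.39, 8.73 and 8.56, against 8.66, 8.42 and 8.52 in mutant controls, and there they did. SE raised it by 0.66 (standard error 0.115, adjusted p = 0.00215), and pilocarpine changed it in mutants by 0.03 (standard error 0.115, adjusted p = 0.942), with a 95% interval of -0.22 to 0.28. The difference between these responses, -0.63 (standard error 0.162, adjusted p = 0.0569), missed the threshold. It was called in 4 of 20 alternative settings, with a trended and robust prior, with only probe sets above the median level, and without the second mutant with pilocarpine or the second heterozygous mouse with SE (-0.76 to -0.71, adjusted p = 0.00869 to 0.0423). After pilocarpine Flna was lower in mutants, with a difference of -0.67 (standard error 0.115, adjusted p = 0.00253). In controls the difference was -0.04 (standard error 0.115, adjusted p = 0.952). Over both states the difference was -0.35 (standard error 0.081, adjusted p = 0.0223), which was not called with the Xist level as a covariate (-0.32, adjusted p = 0.0564), nor without the first mutant with pilocarpine, the third heterozygous mouse with SE or the second heterozygous control (-0.32 to -0.31, adjusted p = 0.0577 to 0.0602).

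Actn1, the gene of alpha-actinin 1, which bundles filaments, was lower in mutants after pilocarpine, with a difference of -0.25 (standard error 0.052, adjusted p = 0.00789) and one over both states of -0.17 (standard error 0.0368, adjusted p = 0.0165). Its level was 10.10, 10.05 and 9.94 in mutants with pilocarpine, against 10.22, 10.30 and 10.31 in heterozygous mice with SE. In controls the groups overlapped and the difference was -0.09 (standard error 0.052, adjusted p = 0.675). The paralogue Actn4 had no call, with 0.02 (standard error 0.0426, adjusted p = 0.859) after pilocarpine and 0.08 (standard error 0.0426, adjusted p = 0.629) in controls.

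Tropomyosins lie along the actin filament and set which proteins can bind it. Tpm4 had the largest rise of the 44 genes in SE. It was at 9.73, 9.63 and 9.90 in heterozygous mice with SE and 9.07, 8.99 and 8.89 in heterozygous controls, and at 9.22, 9.45 and 9.39 in mutants with pilocarpine and 8.995, 8.889 and 9.113 in mutant controls. The arrays with pilocarpine were above their controls in both genotypes, and those of the mutants were below those with SE. The rise was 0.77 (standard error 0.0842, adjusted p = 6.05e-05), or 1.71-fold, in heterozygous mice, and 0.36 (standard error 0.0842, adjusted p = 0.0551) in mutants, which missed the threshold and was called in 6 of 21 alternative settings. After pilocarpine Tpm4 was lower in mutants, with a difference of -0.40 (standard error 0.0842, adjusted p = 0.00903), and the responses differed by -0.42 (standard error 0.119, adjusted p = 0.0855). A further probe set, annotated to both Tpm4 and Gm7809, rose by 0.83 in SE (standard error 0.0941, adjusted p = 8.07e-05) and had a difference of 0.37 in mutants (adjusted p = 0.076). Tpm1 was lower in mutants over both states, with a difference of -0.16 (standard error 0.0361, adjusted p = 0.0237), and levels of 9.54, 9.49 and 9.40 in mutants with pilocarpine, against 9.60, 9.58 and 9.68 in heterozygous mice with SE, and 9.45, 9.43 and 9.49 in mutant controls, against 9.70, 9.61 and 9.58 in heterozygous controls. All 6 mutant arrays of Tpm1 lay below all 6 heterozygous ones. This call was lost with the Xist level as a covariate (-0.13, adjusted p = 0.0597) and without any 1 of 4 arrays, the second mutant with pilocarpine, the first mutant control, the third heterozygous mouse with SE and the first heterozygous control (adjusted p = 0.0502 to 0.065). Tpm2 and the 4 own probe sets of Tpm3 had no call.

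Among the myosin genes, Myh9, the heavy chain of non-muscle myosin IIA, was called, and its 2 probe sets disagreed in the mutants. The brighter one was at 10.04, 9.98 and 10.18 in heterozygous mice with SE and 9.46, 9.66 and 9.57 in heterozygous controls, and at 9.93, 9.93 and 9.96 in mutants with pilocarpine and 9.53, 9.54 and 9.68 in mutant controls. It rose by 0.50 (standard error 0.0656, adjusted p = 0.000272) in SE and by 0.35 (standard error 0.0656, adjusted p = 0.0183) in mutants, and these responses differed by -0.15 (standard error 0.0927, adjusted p = 0.508), with a 95% interval of -0.35 to 0.06. The dimmer one was at 7.12, 6.80 and 7.25 in heterozygous mice with SE and 6.24, 6.33 and 6.16 in heterozygous controls, but at 6.24, 6.33 and 6.23 in mutants with pilocarpine and 6.34, 6.32 and 6.35 in mutant controls. It rose by 0.82 (standard error 0.0916, adjusted p = 7.46e-05) in SE and changed by -0.07 (standard error 0.0916, adjusted p = 0.79) in mutants, and its responses differed by -0.89 (standard error 0.129, adjusted p = 0.00192). All its values lay below the median level (7.69), so that the filter on dim probe sets left it out. Whether its level without SE was near the background was not tested. The rise of the brighter probe set in mutants was lost when an array of the mutants with pilocarpine or the first or second mutant control was left out (adjusted p = 0.0527 to 0.0718), and with both probe sets averaged it was 0.14 (adjusted p = 0.39). After pilocarpine, the difference between mutants and heterozygous mice with SE was -0.12 (standard error 0.0656, adjusted p = 0.291) for the brighter and -0.79 (standard error 0.0916, adjusted p = 0.000143) for the dimmer probe set, and -0.46 (adjusted p = 0.00132) with both averaged, so that the count of 0 myosin genes lower after pilocarpine rests on the choice of the brighter one. No position of the probe sets in the transcript was used here. Myh10, the chain of non-muscle myosin IIB, had no call, with 0.13 (standard error 0.0464, adjusted p = 0.102) in SE.

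**Figure D3:**
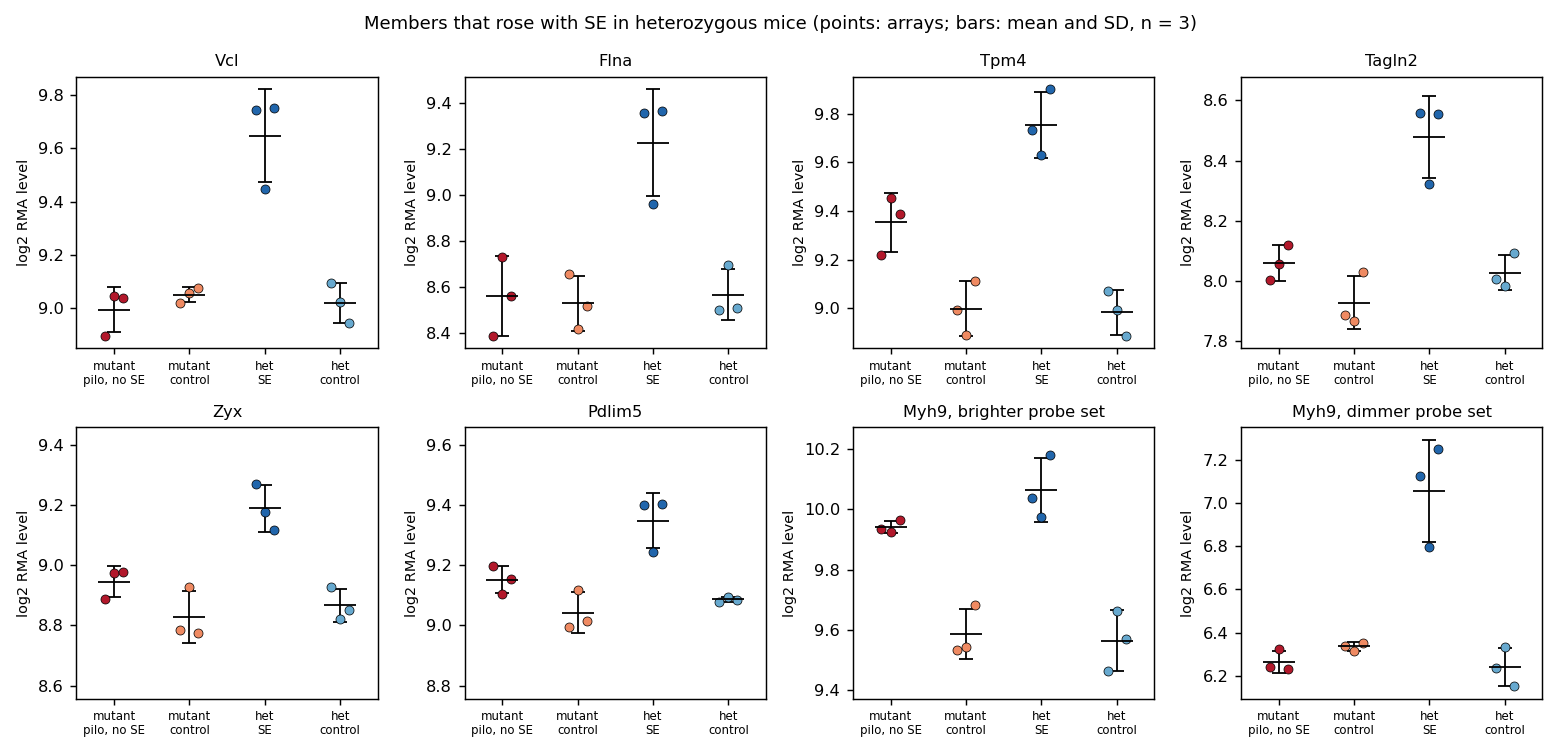
Log2 level (y axis) on each array (points) by group (x axis) of genes that rose with SE in heterozygous mice, with mean and SD in black (n = 3); Tgfb1i1, which also rose, is in the plot of genes lower in mutants. For Vcl and the dimmer probe set of Myh9 the mutants with pilocarpine lie among or below the mutant controls, whereas for Tpm4 and the brighter probe set of Myh9 they lie above them.

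Genes of filament turnover mostly had no call. They include cofilin and its relatives, which sever filaments, profilins, which supply monomers, and the kinase and phosphatase that act on cofilin. Wdr1, a cofactor of cofilin in disassembly, was at 12.05, 12.02 and 11.97 in mutants with pilocarpine, against 12.33, 12.31 and 12.38 in heterozygous mice with SE. In mutant controls it was at 11.97, 12.08 and 11.99, against 12.23, 12.28 and 12.25 in heterozygous controls. The genotypes did not overlap in either state. Its difference was -0.33 (standard error 0.0445, adjusted p = 0.000529) after pilocarpine and -0.28 (standard error 0.0315, adjusted p = 0.000223) over both states, while that in controls, -0.24 (standard error 0.0445, adjusted p = 0.0957), missed the threshold. Dstn, the gene of destrin, was at 11.27, 11.29 and 11.14 in mutants with pilocarpine, against 11.65, 11.49 and 11.64 in heterozygous mice with SE, which did not overlap. It was at 11.36, 11.22 and 11.29 in mutant controls, against 11.34, 11.46 and 11.40 in heterozygous controls, which did. Dstn was lower after pilocarpine, with a difference of -0.37 (standard error 0.0601, adjusted p = 0.00185) and one over both states of -0.24 (standard error 0.0425, adjusted p = 0.0057), and its rise in SE missed the threshold, with 0.20 (standard error 0.0601, adjusted p = 0.0559). The other 7 genes, Cfl1, Cfl2, Gsn, Pfn1, Pfn2, Limk1 and Ssh1, had no call in any comparison with limma, and 2 of their 42 tests had an unadjusted p under 0.05. For the cofilin gene Cfl1 the difference over both states was -0.07 (standard error 0.0279, adjusted p = 0.214), with a 95% interval of -0.13 to 0.00.

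Of the calponin, transgelin, caldesmon and LIM genes, Tagln2 changed most among those called. It encodes transgelin 2, an actin-binding protein found outside smooth muscle as well. It was at 8.56, 8.32 and 8.56 in heterozygous mice with SE and 8.01, 7.98 and 8.09 in heterozygous controls, and at 8.003, 8.058 and 8.121 in mutants with pilocarpine and 7.89, 7.87 and 8.03 in mutant controls. The arrays with SE were above all others. The rise in SE was 0.45 (standard error 0.0694, adjusted p = 0.000906); Tagln2 changed in mutants by 0.13 (standard error 0.0694, adjusted p = 0.414), and was lower in mutants after pilocarpine, with a difference of -0.42 (standard error 0.0694, adjusted p = 0.00197) and one over both states of -0.26 (standard error 0.049, adjusted p = 0.0081). In controls the genotypes differed by -0.10 (standard error 0.0694, adjusted p = 0.733). The responses of Tagln2 differed by -0.32 (standard error 0.0981, adjusted p = 0.111), which was called only without the second heterozygous mouse with SE (-0.40, adjusted p = 0.022).

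Pdlim5, a PDZ and LIM protein of actin bundles, was raised in SE by 0.26 (standard error 0.0529, adjusted p = 0.00563) and was lower in mutants after pilocarpine, with a difference of -0.20 (standard error 0.0529, adjusted p = 0.0343). Its responses differed by -0.15 (standard error 0.0748, adjusted p = 0.353). The call between genotypes held in 12 of 21 alternative settings and was lost without any 1 of the mutants with pilocarpine, the first or the third heterozygous mouse with SE or the third heterozygous control (adjusted p = 0.0509 to 0.127). Fhl2, a LIM-only protein that also acts with transcription factors, was lower in mutants over both states, with a difference of -0.20 (standard error 0.0462, adjusted p = 0.0232). This was lost without any 1 of 5 arrays, the second mutant with pilocarpine, the first mutant control, the first heterozygous mouse with SE, and the first and the third heterozygous control (adjusted p = 0.0501 to 0.065). Cnn2, a calponin, had the largest change of this role and no call: it was at 8.58, 8.03 and 8.68 in heterozygous mice with SE and 7.88, 7.89 and 7.85 in heterozygous controls, and at 8.01, 8.50 and 7.88 in mutants with pilocarpine and 7.80, 7.51 and 7.93 in mutant controls. All arrays with SE were above their controls, but the spread among them was wide, and the difference was 0.56 (standard error 0.177, adjusted p = 0.0619). It was called without the second mutant with pilocarpine or the second heterozygous mouse with SE (adjusted p = 0.00948 to 0.0307). The genes of this role left, Cald1, Cnn3, Csrp1, Fhl1, Lima1, Pdlim7 and Filip1l, had no call, and their differences in SE lay between -0.07 for Fhl1 and 0.25 for Cald1, the gene of caldesmon.

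The contractile genes of smooth muscle varied widely within groups and were not called. Acta2 encodes the alpha-actin of smooth muscle, Tagln SM22, Myh11 the heavy chain and Myl9 a light chain of its myosin, Mylk the kinase of that light chain, and Cnn1 calponin 1. None of these 6 was called in any comparison with limma, and 2 of their 36 tests had an unadjusted p under 0.05. The SD within groups, pooled over the groups, was 0.38 for Acta2, 0.223 for Tagln, 0.186 for Myh11, 0.168 for Myl9, 0.164 for Cnn1 and 0.109 for Mylk, against 0.0288 for Actb and a median of 0.0759 over all probe sets. Acta2, whose values were chosen for display after they were seen, was at 8.95, 9.55 and 9.31 in mutants with pilocarpine and 9.73, 8.77 and 9.36 in mutant controls. It was at 9.55, 8.89 and 9.74 in heterozygous mice with SE and 9.14, 9.06 and 9.48 in heterozygous controls. The highest value was that of the third heterozygous mouse with SE and the lowest that of the second mutant control, and all 4 groups overlapped.

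The same arrays stood out for several of these genes. In mutant controls the first mouse was the highest and the second the lowest for all 6 genes. In heterozygous mice with SE the third mouse was the highest and the second the lowest for all 6. In mutants with pilocarpine and in heterozygous controls, no mouse was the highest or the lowest for all 6. The second heterozygous mouse with SE was also the lowest of its group for Vcl, Flna, Tpm4, Tagln2, Cnn2 and both probe sets of Myh9. On that array the mean of 8 endothelial markers was 8.07 and that of 10 mural cell markers 7.90, the lowest of all 12 arrays, whereas the other arrays with SE had endothelial means of 8.60 and mural means of 8.07 and 8.10. Mural markers ranged from 8.09 to 8.24 in mutants with pilocarpine, 8.07 to 8.22 in mutant controls and 8.06 to 8.12 in heterozygous controls, and 7 of 10 were above the median level. Endothelial markers ranged from 8.34 to 8.57, 8.55 to 8.60 and 8.44 to 8.59 in these groups, with 5 of 8 above the median level. The mean of 8 meningeal fibroblast markers, of which 5 were above the median level, spread further over the arrays: it was 7.89 in the second mutant control and 8.66 in the first, and 7.87 in the second heterozygous mouse with SE, the lowest of the 12 arrays. It ranged from 8.23 to 8.91 in mutants with pilocarpine, 7.89 to 8.66 in mutant controls, 7.87 to 8.36 in heterozygous mice with SE and 8.34 to 8.61 in heterozygous controls. Of the mural markers, Pdgfrb was lower in SE, with a difference of -0.48 (standard error 0.0697, adjusted p = 0.000559), and Cspg4 was higher by 0.31 (adjusted p = 0.0182). Pdgfrb was also higher in mutants than in heterozygous mice, by 0.41 after pilocarpine (adjusted p = 0.00225) and 0.22 over both states (adjusted p = 0.0214). Of the endothelial markers, only Tek was called in SE, with a difference of -0.445 (standard error 0.114, adjusted p = 0.0227). The part of vascular and meningeal cells in the differences of the other genes was not tested. Without the second heterozygous mouse with SE, the rises of Vcl, Flna, Tpm4, Tagln2 and Myh9 kept their calls. As that mouse was the lowest of its group for these genes, leaving it out enlarges their rises. It therefore tells nothing about the part of such cells.

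**Figure D4:**
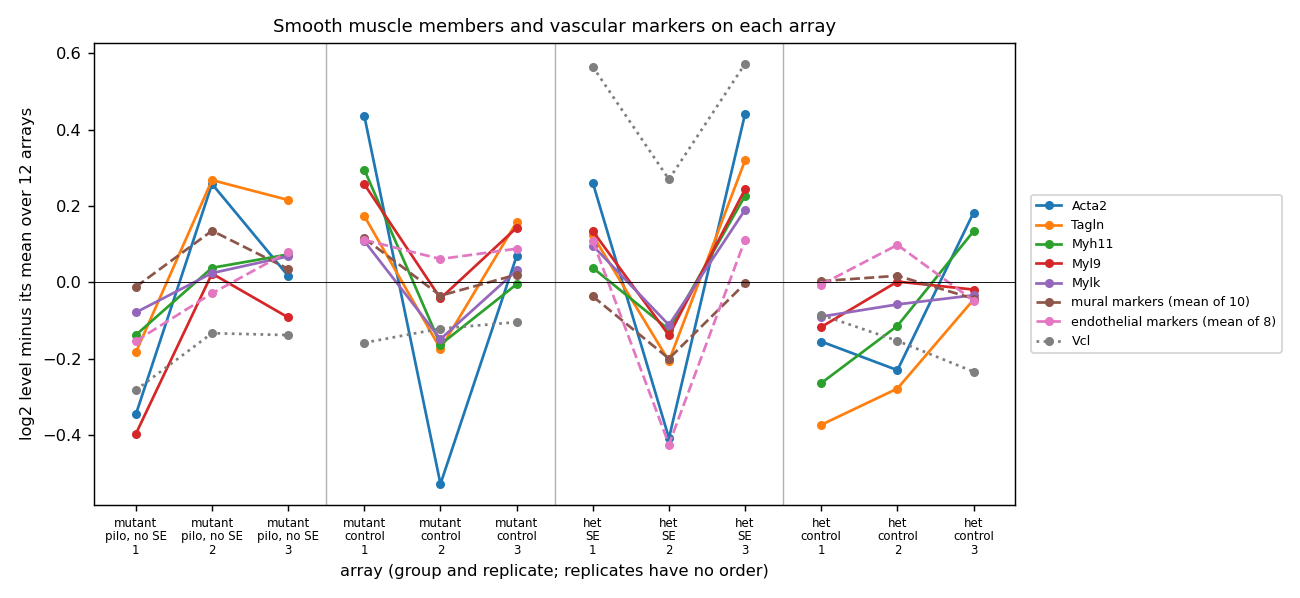
Log2 level minus its mean over the 12 arrays (y axis) on each array (x axis) for 5 smooth muscle genes (solid lines), the mean of 10 mural and of 8 endothelial markers (dashed) and Vcl (dotted); lines join arrays of 1 group only to guide the eye. The second heterozygous mouse with SE is lowest of its group for every line, and its Vcl level lies above that of all arrays without SE.

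A wider list of 78 genes of actin regulation outside the set, of which 72 were measured, was read against all probe sets in the same way. With SE in heterozygous mice 8 were higher (11.1%, against 5.08% of all probe sets) and 1 was lower (1.39%, against 6.93%), with a median of 0.01. The genes that rose included Flnc, filamin C (0.89, standard error 0.153, adjusted p = 0.00194), Itga5, the integrin alpha 5 chain (0.88, standard error 0.162, adjusted p = 0.00317), and Ezr, the membrane linker ezrin (0.48, standard error 0.0538, adjusted p = 7.64e-05). In mutants with pilocarpine against mutant controls 1 was higher (1.39%, against 0.871%) and 2 were lower (2.78%, against 0.965%), Ezr (0.41, standard error 0.0538, adjusted p = 0.00246), Ssh3, a slingshot phosphatase (-0.31, standard error 0.0468, adjusted p = 0.00548), and Coro1b, a coronin (-0.20, standard error 0.0413, adjusted p = 0.0321). No gene of the list was called between mutant and heterozygous controls with limma. At an unadjusted p under 0.05, 4 were higher and 1 lower, against 1014 and 1029 of all 23410 probe sets. After pilocarpine 4 were lower (5.56%, against 4.72%) and 3 higher (4.17%, against 5.39%) in mutants than in heterozygous mice with SE, shares near those of all probe sets, among them Pxn, the adhesion protein paxillin (-0.36, standard error 0.0633, adjusted p = 0.00316), and Ssh3 (-0.28, standard error 0.0468, adjusted p = 0.00194), which were lower, and Twf1, the monomer-binding twinfilin 1 (0.28, standard error 0.0616, adjusted p = 0.0115), which was higher. Over both states 2 were higher in mutants (2.78%, against 3.31%) and 0 lower (against 3.08%). They were Ezr (0.22, standard error 0.038, adjusted p = 0.00431) and Twf1 (0.16, standard error 0.0436, adjusted p = 0.0461). The response to pilocarpine was lower in mutants for 2 genes (2.78%, against 2.12%), Ssh3 (-0.40, standard error 0.0661, adjusted p = 0.00492) and Pxn (-0.39, standard error 0.0895, adjusted p = 0.0333). None of the 7 genes of the Arp2/3 complex, which nucleates branched filaments, and none of the 9 of the WASP and WAVE families, which activate it, was called in any comparison with limma; 4 of 42 and 3 of 54 tests had an unadjusted p under 0.05.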

How the data were processed

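Log2 values of the robust multiarray average (RMA), made by the authors in Affymetrix Expression Console, were used as deposited; they include background correction, quantile normalization and a summary of probes to probe sets. Quantile normalization sets all arrays to 1 distribution, so that a shift shared by most genes is not visible. Of 35556 probe sets, 23410 have a gene in the platform annotation (1621 of these several) and 12146 have none. A gene was represented by its brightest own probe set over the 12 arrays. Means of the 4 groups were fitted with limma 3.58.1 (lmFit and eBayes) in R 4.3.3, without a block. Array number limits the precision. Promoters were searched in Python 3.11.15. Per-array values were given for Actb, for called members (up to 6 per comparison with the largest change), and for the member with the largest change in each role; Actc1, Tpm1, Actn1 and Acta2 were added after their values were seen. The members, lists and tests were chosen with earlier results of these data known. The fit was tested on simulated data. Alternatives were a trended and robust prior, a filter on dim probe sets, other scalings, the arrays in the fit, probe sets per gene, a block by animal number, the Xist level, the study's limits and leaving out each array. Mutants that reached SE were not analysed here.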

Additional observations from a re-analysis of the deposited data

Results flagged for a closer look

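The response of Vcl to pilocarpine differed between the genotypes by -0.68 (log2, standard error 0.109, adjusted p = 0.00352 from limma): its level was higher in all 3 heterozygous mice with SE than in their controls, while the mutants with pilocarpine overlapped with theirs. The dimmer probe set of Myh9 differed in the same way by -0.89 (standard error 0.129, adjusted p = 0.00192 from limma), whereas for the brighter one the difference was -0.15 (adjusted p = 0.508 from limma). All values of the dimmer one lay below the median level of probe sets with a gene. The mutants had no SE, so that genotype and SE cannot be told apart in either result.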

How the results depend on the processing

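Of 53 called results of single genes and probe sets, 43 kept their call in every alternative apart from the study's limits, and no called result turned its direction. These results are not independent of each other. They include the 4 probe sets shared by Actg1 and Actb, in controls, after pilocarpine and over both states, whose values were close on each array. Further probe sets of Myh9 and Tpm4 are also counted. The count of called genes for pilocarpine in mutants was 1, and became 2 with a trended and robust prior, above the median level or with a repeated quantile normalization, and 0 with the probe sets of a gene averaged. For the genotypes in controls it was 2, and became 1 above the median level, with median centring, with only the compared groups, with all probe sets, with the Xist covariate or with the replicate block, and 3 with the trended and robust prior. The count of genes with a lower response in mutants was 1, and became 2 with the trended and robust prior, above the median level or with averaged probe sets. At the study's limits (adjusted p under 0.001 and 2-fold) it was 0 in all 6 comparisons in limma, as no gene of the set reached 2-fold. Leaving out each array in turn gave 7 to 10 genes for SE, 0 to 2 for pilocarpine in mutants, 1 to 2 for the genotypes in controls, 9 to 12 after pilocarpine, 9 to 13 over both states and 1 to 3 for the difference in response; the last reached 3 without the second heterozygous mouse with SE, and pilocarpine in mutants reached 0 without the first mutant with pilocarpine, among others. With the replicate number as a block, the counts were 7, 1, 1, 10, 11 and 1 in that order. Deviations of mice with the same number correlated at -0.312 to 0.323 (over 0.1 in 5 of 18 pairs). Those of mice of different groups and numbers correlated at -0.442 to 0.393 (over 0.1 in 12 of 36 pairs). This shows no sign of a pairing by number, but with 3 mice per group it cannot exclude one. Median centring moved the median of all probe sets by less than 0.1.

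Over all probe sets, calls for pilocarpine in mutants numbered 430, against 688 above the median level, 161 with only the compared groups, 246 with all probe sets and 162 without the second mutant with pilocarpine. For the genotypes in controls they numbered 28, against 9 with only the compared groups, 11 with all probe sets, 15 with the block, 12 with the Xist covariate and 8 to 47 with an array left out. Leaving out an array lowered the counts to 1547 from 2367 after pilocarpine (the first mutant), to 994 from 1497 over both states (the first heterozygous control) and to 535 from 840 for the difference in response (the first mutant with pilocarpine). At the study's limits, 155, 17, 0, 96, 18 and 95 probe sets were called in the order above. The cause was not tested.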
